A study of Homo sapiens with 16 samples.

Results

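Of 2587857 ChIP-seq peaks on chromosomes 1 to 22 in HCT116 cells, 64142 (2.48%) lay within 2 Mb of a chromosome end. They were chosen by position alone, over 20 peak lists, with the end of a chromosome taken as the last base covered by any peak. These 2 Mb stretches are called end zones here, and everything between them the interior. Peaks were found at 39 of 44 ends, and the short arms of chromosomes 13, 14, 15, 21 and 22 had none in their end zone. The lists called against input held 14635 of the end-zone peaks and the lists called against IgG 49507. Over all lists the end zones made up 2.69% of the 10 kb windows touched by any peak, by length, so that on average peaks were about as dense there as elsewhere. That average hid large differences between libraries.

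Subtelomeres are the stretches of DNA next to the telomere repeats. They are rich in genes, GC bases and recently duplicated sequence, and copies of the same family lie on several chromosome ends. H3K9me3 is the histone mark of constitutive heterochromatin, which is found at telomeres, satellite repeats and zinc finger gene clusters. SETDB1 is a methyltransferase that writes this mark. TRIM28 is the corepressor that brings SETDB1 to sites bound by KRAB zinc finger proteins, and ARID1A is the DNA-binding subunit of the BAF form of the SWI/SNF remodeller, which acts mostly at open promoters and enhancers.

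HCT116 is an established human colon cancer cell line. The series asks how ARID1A and heterochromatin relate, and has 16 samples in 3 cell states. Cells with no hairpin named in the label are called unmodified and had ARID1A, H3K9me3 and TRIM28 libraries. Cells with a control hairpin RNA (shCtrl, written CTR in the titles) had ARID1A, H3K9me3, TRIM28 and SETDB1 libraries, and cells with a hairpin against ARID1A (shARID1A) had H3K9me3, TRIM28 and SETDB1. No ARID1A library of the knockdown cells was used here, so the loss of ARID1A itself was not checked, and whether hairpin cells were a clone or a pool is not given in the sources used here. Each of the 10 libraries was the only one of its group and gave 1 list against input and 1 against IgG. No difference below has a replicate check, and every 95% interval covers counting error only.

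Doubts about some labels bear on what follows. The antibody product named for H3K9me3 and for TRIM28 differs between the protocol and the sample descriptions. Over all chromosomes, 53.5% of the peaks with a q of at most 0.05 in shARID1A H3K9me3 lay under such a peak of the library labelled shCtrl SETDB1, and 2.45% under one of the library labelled shCtrl H3K9me3. Likewise 79.6% of such unmodified ARID1A peaks lay under one of the library labelled shCtrl H3K9me3. These names are used below as labels only. The 6 input and IgG samples had no list of their own.

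Strong peaks of the shARID1A SETDB1 library, with a q of at most 0.05, lay on 21 subtelomeric promoters, and several of these share a short word of sequence. The 150 bases before the gene start of 7 promoters with the word are shown, whose peaks had folds from 4.39 (ADAT3) to 24.3 (C1orf159), in RefSeq's GRCh38.p14 and 5′ to 3′ on the gene's strand, with ACTACAA or its reverse complement TTGTAGT in capitals. ZNF670 is added as a promoter that holds no such word. It is also among the 21, with a shARID1A SETDB1 fold of 4.14, but its highest promoter fold against input was in the shARID1A H3K9me3 list. It has 8 CpG in the 250 bases before its start, and the other 7 printed have 24 to 35. That low number is not typical of the promoters without the word. The rest of those among the 21 have 26 (RPLP2) to 41 (ADAP1) CpG.
C1orf159 (chr1:1116090-1116239, minus strand): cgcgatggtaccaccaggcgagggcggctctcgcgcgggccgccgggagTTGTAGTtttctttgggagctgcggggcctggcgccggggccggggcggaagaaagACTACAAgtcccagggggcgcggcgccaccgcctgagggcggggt
UCKL1 (chr20:63956417-63956566, minus strand): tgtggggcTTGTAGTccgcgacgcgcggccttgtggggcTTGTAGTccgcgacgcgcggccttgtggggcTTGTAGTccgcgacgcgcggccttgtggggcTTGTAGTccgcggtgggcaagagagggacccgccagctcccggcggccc
PTDSS2 (chr11:450129-450278, plus strand): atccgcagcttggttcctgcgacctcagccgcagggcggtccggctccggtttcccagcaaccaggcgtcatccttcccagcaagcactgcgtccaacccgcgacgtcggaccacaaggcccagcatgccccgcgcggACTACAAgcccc
STK25 (chr2:241508585-241508734, minus strand): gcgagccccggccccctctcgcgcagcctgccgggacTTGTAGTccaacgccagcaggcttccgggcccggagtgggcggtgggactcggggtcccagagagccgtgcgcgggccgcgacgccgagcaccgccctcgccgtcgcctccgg
CAPN15 (chr16:527562-527711, plus strand): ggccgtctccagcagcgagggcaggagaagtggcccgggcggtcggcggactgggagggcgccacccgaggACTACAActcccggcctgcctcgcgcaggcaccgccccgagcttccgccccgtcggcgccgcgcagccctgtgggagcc
ACAD8 (chr11:134253418-134253567, plus strand): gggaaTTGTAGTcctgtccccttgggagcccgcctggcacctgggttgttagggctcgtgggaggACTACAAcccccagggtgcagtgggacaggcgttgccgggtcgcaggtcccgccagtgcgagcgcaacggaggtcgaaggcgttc
ADAT3 (chr19:1905249-1905398, plus strand): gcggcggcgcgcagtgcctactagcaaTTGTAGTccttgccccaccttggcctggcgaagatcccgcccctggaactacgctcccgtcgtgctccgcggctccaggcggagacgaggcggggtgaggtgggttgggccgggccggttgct
ZNF670 (chr1:247078812-247078961, minus strand): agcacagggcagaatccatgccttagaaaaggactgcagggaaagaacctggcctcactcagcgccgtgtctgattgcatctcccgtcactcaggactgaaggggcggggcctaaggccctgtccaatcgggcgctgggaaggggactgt

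In UCKL1, a uridine-cytidine kinase family gene, the word stands 4 times in tandem copies of the same unit. C1orf159 carries it in both orientations, and so does ACAD8, a gene of valine breakdown. PTDSS2, a phosphatidylserine synthase, has it close to the start, and STK25 (a protein kinase), CAPN15 (a calpain) and ADAT3 (a subunit of a tRNA deaminase) have it once. The counts behind this choice are given with the promoters below. The sequences of C1orf159, PTDSS2 and ZNF670 were picked by fold among the named genes whose peak lay on a promoter. The other 5 were picked after the word had been noticed in the data. Chromosome 8 was left out of both choices.

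Against input, end zones were thinly occupied in unmodified and shCtrl cells and more densely than the interior in shARID1A cells. The density ratio, which is peaks per Mb of touched windows in the end zones over the same in the interior, was below 1 in 7 of 10 libraries and above 1 in 3, all with intervals that left out 1. It was 0.413 (0.370 to 0.460) in unmodified ARID1A and 0.449 (0.425 to 0.474) in shCtrl ARID1A. Both libraries of the remodeller subunit thus listed the end zones thinly, at 4.79 against 11.6 and 19.1 against 42.5 peaks per Mb.

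Among heterochromatin factors of unmodified cells the ratio was 0.835 (0.735 to 0.945) for H3K9me3 and 0.549 (0.501 to 0.60) for TRIM28. In shCtrl cells it was 0.418 (0.393 to 0.445) for the library labelled H3K9me3, 0.478 (0.447 to 0.510) for TRIM28 and 0.741 (0.704 to 0.779) for the library labelled SETDB1. In shARID1A cells it was 1.21 (1.15 to 1.26) for H3K9me3, 1.05 (1.03 to 1.08) for TRIM28 and 1.16 (1.09 to 1.23) for SETDB1. No shARID1A library fell among the others, and SETDB1 was the densest of the 4 shCtrl libraries near the ends. Without the libraries labelled shCtrl H3K9me3 and shCtrl SETDB1, 5 of 8 libraries were below 1 and 3 above.

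**Figure D1:**
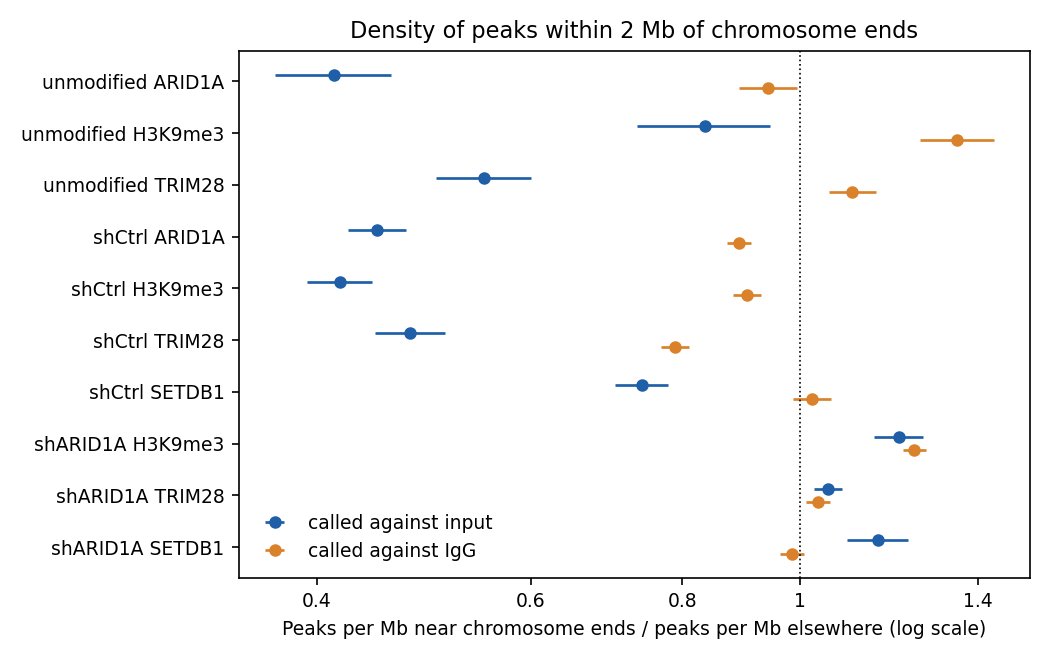
Density ratio (peaks per Mb within 2 Mb of chromosome ends over peaks per Mb elsewhere, log axis) for each of 10 libraries, with 95% counting intervals as bars. Against input (blue) 7 libraries sit below 1 and the 3 shARID1A libraries above it, whereas against IgG (orange) all 10 lie between 0.789 and 1.35.

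The depletion depended on the control. Against IgG the ratio was higher than against input in 8 of 10 libraries, and only 4 remained below 1 with an interval that left it out. Unmodified ARID1A went to 0.942 (0.891 to 0.994), shCtrl ARID1A to 0.890 (0.870 to 0.911), shCtrl H3K9me3 to 0.905 (0.881 to 0.929) and shCtrl TRIM28 to 0.789 (0.768 to 0.810). These libraries kept their direction, but the shortfall was far smaller.

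Unmodified H3K9me3 turned to 1.35 (1.26 to 1.44) and unmodified TRIM28 to 1.10 (1.06 to 1.15). In shARID1A cells H3K9me3 stayed at 1.24 (1.22 to 1.27) and TRIM28 at 1.04 (1.01 to 1.06), while SETDB1 came to 0.985 (0.962 to 1.01). For the shCtrl SETDB1 label it came to 1.02 (0.986 to 1.06). For both SETDB1 libraries no difference between end zones and interior was detectable against IgG. Of the heterochromatin factors, H3K9me3 in unmodified and in shARID1A cells had the clearest excess near the ends in these lists.

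The control's local background under the peaks differed too. The peak caller compares each peak with a local background, and that value can be recovered from the fold and the p of a peak. A floor was set at the 1st percentile of the background of sampled interior peaks of the same list. The share of peaks with a background over 5% above it is used here as a measure of how often the control was locally raised. Against input, 66.6% of end-zone peaks and 51.8% of sampled interior peaks were above it in unmodified ARID1A, and 50.6% and 40.6% in unmodified TRIM28. In the 4 shCtrl libraries the end-zone share was also the higher one, from 62.3% against 61.1% in TRIM28 to 69.9% against 63.9% in the library labelled H3K9me3.

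In shARID1A cells the order was the opposite. Background was raised under 48.1% of end-zone and 61.7% of interior peaks of H3K9me3, under 36.7% and 52.7% of TRIM28 peaks, and under 49.4% and 60.7% of SETDB1 peaks. Against IgG all 7 shCtrl and shARID1A libraries had the lower share in the end zones, for example 37.2% and 64.3% in shCtrl ARID1A. Unmodified H3K9me3 had 48.8% and 48.2% against input. These shares were read under called peaks alone, which had to exceed that background, so they do not measure the input signal of the end zones as a whole. The part of the input library in the density ratios was not tested.

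**Figure D2:**
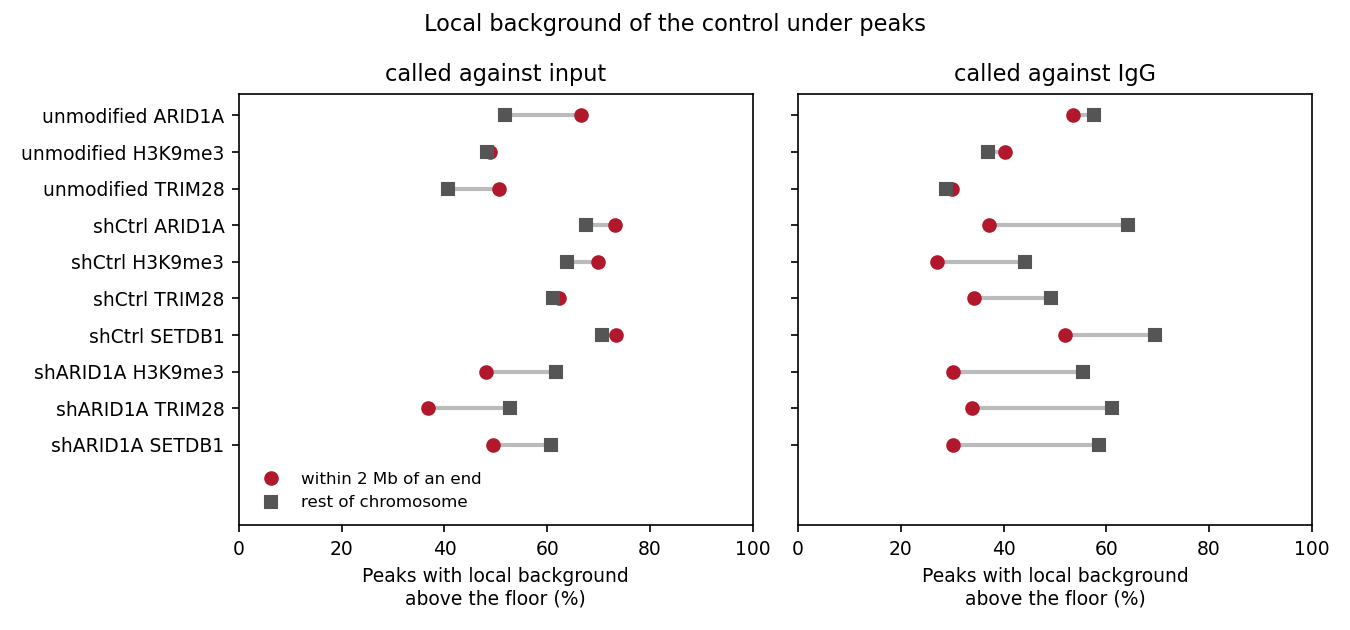
Share of peaks (%) with a local background of the control over 5% above the 1st percentile of the list's sampled interior peaks. Red circles are peaks within 2 Mb of an end and grey squares up to 3000 sampled interior peaks, for lists against input (left) and IgG (right). Against input the red circles lie to the right in shCtrl libraries and to the left in shARID1A libraries, and against IgG they lie to the left in both states.

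Peak density did not fall evenly toward the chromosome end. Relative to positions beyond 10 Mb from an end, shCtrl ARID1A stood at 1.04 in the outermost 0.1 Mb, 0.668 from 0.1 to 0.25 Mb and 0.364 from 1 to 2 Mb. TRIM28 of shCtrl cells had nearly the same course, with 1.01, 0.671 and 0.377. Against input both therefore dipped in the outer megabases and came back to the interior level at the very end, where duplicated sequence is common and reads of near-identical copies cannot be told apart. Against IgG the same 3 bins stood at 0.893, 0.923 and 0.850 for ARID1A and at 0.842, 0.877 and 0.739 for TRIM28, so the dip was far shallower and the tip did not return to the interior level.

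Unmodified H3K9me3 had the steepest rise to the tip. Its density was 2.11 times the level beyond 10 Mb in the outermost 0.1 Mb (31 peaks), 1.34 times in the next bin and 0.534 times from 0.5 to 1 Mb. Unmodified TRIM28 went from 0.424 between 1 and 2 Mb to 1.22 at the tip, and unmodified ARID1A reached no more than 0.691 there. Against IgG unmodified H3K9me3 rose to 2.44 at the tip as well, and stood at 1.28 from 0.5 to 1 Mb, where the input list had the dip. That labelled shCtrl H3K9me3 reached 0.863 at the tip, below 1 like unmodified ARID1A.

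Against input the libraries of shARID1A cells had no dip within 2 Mb, and none of their bins there was below 0.989. SETDB1 was at 1.34 in the outermost 0.1 Mb and at 1.15 from 1 to 2 Mb, H3K9me3 at 1.14 and 1.22, and TRIM28 at 1.12 and 0.989. Across the 2 Mb limit itself the values changed little: just inside (1 to 2 Mb) and just outside (2 to 3 Mb), shCtrl ARID1A had 16.4 and 18.7 peaks per Mb and shARID1A SETDB1 17.5 and 15.0. Farther in, shARID1A SETDB1 and TRIM28 were below 1 too, at 0.819 and 0.861 from 3 to 5 Mb and at 0.827 and 0.902 from 5 to 10 Mb. In shCtrl cells ARID1A stood at 0.557 and TRIM28 at 0.726 from 5 to 10 Mb.

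**Figure D3:**
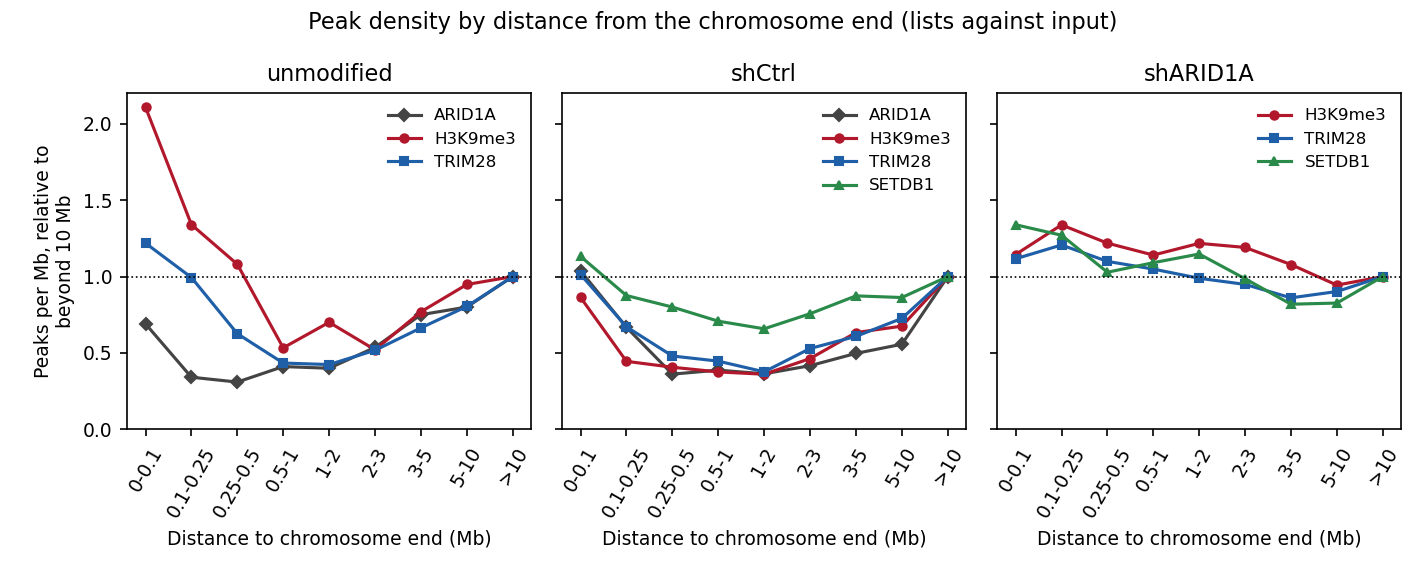
Peaks per Mb of touched windows by distance from the nearest chromosome end, relative to positions beyond 10 Mb (lists against input), for each antibody in the 3 cell states. Unmodified and shCtrl curves dip below 1 between 0.25 and 3 Mb, apart from unmodified H3K9me3 at 0.25 to 0.5 Mb (1.08), and shARID1A curves stay between 0.819 and 1.34.

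Chromosome ends differed widely from each other, even within 1 library. In shARID1A SETDB1 the ratio of an end to the rest of its own chromosome ranged from 0.0338 at 3p (1 peak) to 3.55 at 16q (78 peaks), with 22 of 39 ends above 1. The densest ends after 16q were 8q at 2.78, 19p at 2.42 and 16p at 2.11. The library of H3K9me3 in these cells was densest at 16q (2.27), 17q (2.21), 5q (2.03) and 8q (1.96), and TRIM28 at 8q (1.89), 17q (1.72), 16q (1.60) and 5q (1.56). So the same few long-arm ends led 2 of these 3 libraries, in a different order. Against IgG 16q, 8q and 17q were the leading 3 ends of all 3 libraries, and of shCtrl ARID1A as well. In unmodified cells the densest ends were others: 1q for H3K9me3 (4.24, 32 peaks), 15q for TRIM28 (2.45, 26 peaks) and 21q for ARID1A (1.96, 10 peaks), and H3K9me3 had no peak at 4 ends.

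At 16q the library labelled shCtrl SETDB1 stood at 1.33 (59 peaks), shCtrl H3K9me3 at 0.80 (25 peaks) and shCtrl TRIM28 at 0.703 (18 peaks). At 8q the spread was larger: shCtrl H3K9me3 stood at 0.120 with 13 peaks, its second lowest end, and shARID1A H3K9me3 at 1.96 with 99. Likewise 17q was the lowest end of shCtrl TRIM28, at 0.126 with 5 peaks, and the second highest of shARID1A TRIM28, with 238.

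The end of 3p was the emptiest of most libraries. It was the lowest end in all 3 shARID1A libraries and in ARID1A, H3K9me3 and SETDB1 of shCtrl cells, where SETDB1 had 0 peaks and ARID1A 1. An exception was unmodified H3K9me3, whose ratio at 3p was 1.07 on 9 peaks. Chromosome 20p was the densest end of shCtrl SETDB1 (2.06, 93 peaks) and the second of shCtrl ARID1A (1.95), TRIM28 (1.61) and H3K9me3 (1.10). For shCtrl ARID1A 19p came first at 3.25, an end packed with genes. The end of 10q was sparse too, with 5 peaks in shARID1A SETDB1 and 6 in shCtrl ARID1A.

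**Figure D4:**
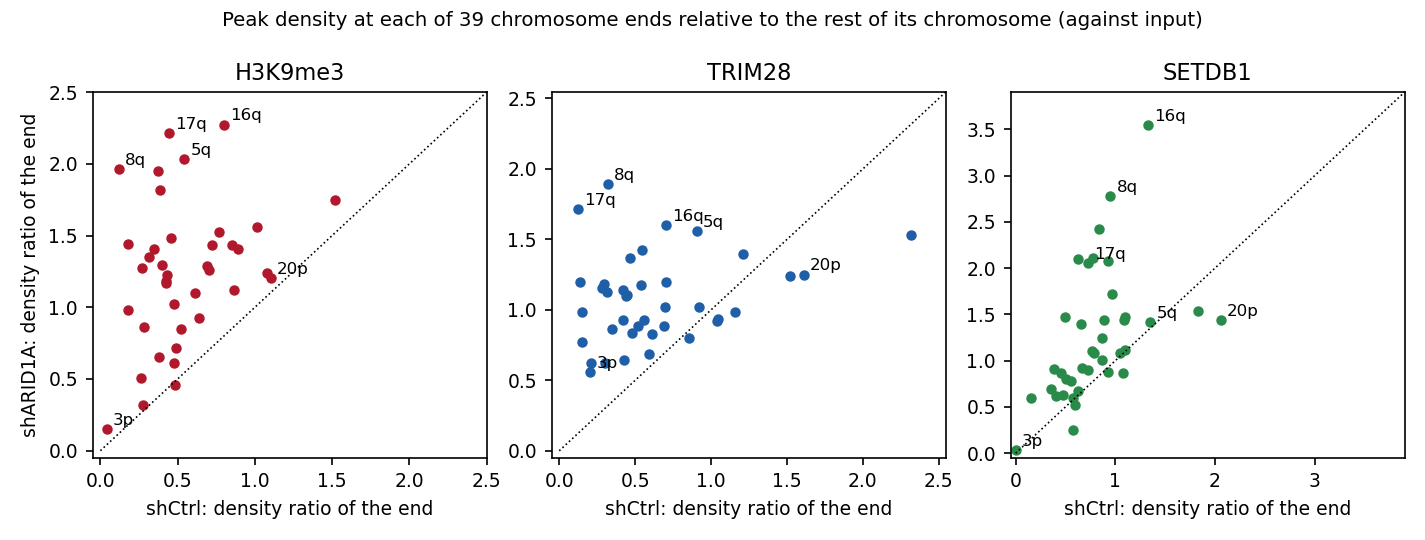
Density ratio of each of 39 chromosome ends (end zone over the rest of the same chromosome, lists against input) in shCtrl (horizontal) and shARID1A (vertical) cells, 1 point per end, with equality as the dotted line. For H3K9me3 38 points, for TRIM28 32 and for SETDB1 33 lie above the line.

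Between states, the end zones took a larger share of the peaks in shARID1A than in shCtrl cells against input. For H3K9me3 the end zones held 1.14% of the shCtrl peaks. In shARID1A they held 3.22%, which is 2.08 percentage points more (1.92 to 2.24). For TRIM28 it was 1.3% and 2.83%, a difference of 1.53 (1.41 to 1.64), and for SETDB1 2.0% and 3.10%, a difference of 1.10 (0.902 to 1.3). The density ratio of an end was higher in shARID1A at 38 of 39 ends for H3K9me3, 32 for TRIM28 and 33 for SETDB1. Ends of 1 library share its source and are not replicates.

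Against IgG the difference was smaller for H3K9me3, at 0.878 points (0.784 to 0.971), and for TRIM28, at 0.648 (0.565 to 0.730). For SETDB1 it was -0.0981 (-0.212 to 0.0138), which was not detectable. Higher ends then numbered 33 of 39 for H3K9me3, 23 for TRIM28 and 20 for SETDB1. The H3K9me3 and SETDB1 comparisons rest on the doubted shCtrl labels, and the TRIM28 comparison does not.

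Peaks that passed a q of at most 0.05, called strong, were over-represented near the ends in shARID1A SETDB1 and TRIM28. In SETDB1 3.48% of all peaks were strong against input. In the end zones 84 of 1208 were, 6.95%, and in the interior 3.37%, a difference of 3.59 points (2.27 to 5.17). The density ratio of strong peaks was 2.39 (1.90 to 2.99) against input and 2.06 (1.85 to 2.29) against IgG, where 2.49% of all peaks were strong. For SETDB1 the excess of strong peaks near the ends thus held with both controls, unlike that of all peaks.

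For TRIM28 in shARID1A cells 1.05% of peaks were strong against input, with 112 of 5681 (1.97%) in the end zones and 1.02% in the interior, a difference of 0.952 points (0.618 to 1.35). Its strong density ratio was 2.04 (1.67 to 2.47), and 2.51 (2.19 to 2.85) against IgG (1.35% strong). For H3K9me3 of these cells 21.3% were strong, with 23.4% of 1811 in the end zones against 21.3% in the interior and a strong density ratio of 1.32 (1.20 to 1.46), or 1.45 (1.37 to 1.53) against IgG (12.5% strong). All 3 shARID1A libraries therefore had a ratio above 1 for strong peaks.

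In shCtrl SETDB1 47.4% of peaks were strong, 54.7% in the end zones and 47.3% in the interior, and the strong density ratio was 0.856 (0.799 to 0.916), or 1.04 (0.987 to 1.09) against IgG (48.5% strong). In shCtrl H3K9me3 7.39% were strong, 85 peaks in the end zones, with a ratio of 0.461 (0.368 to 0.571), or 0.783 (0.700 to 0.874) against IgG (6.99% strong). In the lists of shCtrl ARID1A (0.0387% strong), unmodified H3K9me3 (0.132%), unmodified TRIM28 (0.204%) and shCtrl TRIM28 (0.0356%) strong peaks were rare. In the last of these 8 of 25 lay in an end zone and in unmodified H3K9me3 3 of 15, while in shCtrl ARID1A 0 of 42 did. On these few peaks the strong density ratios were 17.1 (6.37 to 41.7) for shCtrl TRIM28 and 9.06 (1.64 to 33.6) for unmodified H3K9me3. For shCtrl ARID1A it was 0 (0 to 3.33) and for unmodified TRIM28 1.11 (0.132 to 4.19). Such numbers are too small for a firm density. In unmodified ARID1A 2.82% were strong, 14 of them in an end zone.

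Against IgG 112 of 2517 strong peaks of shCtrl ARID1A (0.809% strong) lay in the end zones, a strong density ratio of 1.69 (1.38 to 2.04). Unmodified H3K9me3 (1.1% strong) had 14 of 255 there, a ratio of 2.11 (1.13 to 3.6). A strong excess near the ends was thus also found outside shARID1A cells, with this control and, on the few peaks above, against input. For unmodified ARID1A (1.57% strong), unmodified TRIM28 (0.582%) and shCtrl TRIM28 (0.228%) the intervals of the ratio included 1, at 0.719 (0.409 to 1.18), 0.749 (0.321 to 1.49) and 1.39 (0.865 to 2.13).

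Peak height and width differed little. The authors' fold enrichment had a median of 3.16 in the end zones and 2.93 in the interior for shARID1A SETDB1, and 3.6 and 3.48 for shCtrl SETDB1. In shARID1A H3K9me3 and TRIM28 both medians were the same, 3.15 and 2.35. The median width in shARID1A SETDB1 was 246.5 bp in the end zones and 230 bp in the interior. Summits were low in general, with 5 to 12 fragments at the median peak of a list.

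Peaks of shCtrl cells in the end zones were found again in shARID1A cells, by an overlap of at least 1 bp, more often than interior ones. For SETDB1 4.83% of all shCtrl peaks were found again, 140 of 1569 (8.92%) near the ends and 4.75% in the interior, a difference of 4.18 points (2.86 to 5.70). For TRIM28 5.57% were, with 79 of 914 (8.64%) and 5.53%, a difference of 3.11 (1.45 to 5.12). For H3K9me3 3.64% were, with 66 of 1044 (6.32%) and 3.61%, a difference of 2.71 (1.38 to 4.36). The density of the shARID1A lists near the ends moves with these shares, and its part in them was not tested. Against IgG the shares near the ends and in the interior were 18.2% and 13.0% for H3K9me3 (all peaks 13.1%), 8.39% and 7.26% for TRIM28 (7.28%), and 28.7% and 24.3% for SETDB1 (24.4%). Against input most shCtrl peaks near the ends met no shARID1A peak of the same antibody.

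Sites listed for ARID1A in shCtrl cells met shARID1A peaks more often near the ends. With SETDB1 the overlap was 2.15% of all ARID1A peaks, 124 of 1328 (9.34%) in the end zones and 2.06% in the interior, a difference of 7.28 points (5.82 to 8.96). With TRIM28 it was 5.77%, 15.7% near the ends and 5.65% in the interior, and with H3K9me3 1.96%, 4.44% and 1.92%. For all 3 antibodies, then, ARID1A sites of the end zones held a peak in shARID1A cells more often than interior ones. The shARID1A lists are denser near the ends, and promoters are more frequent there (below). The part of either in these shares was not tested. Against IgG the shares near the ends and in the interior were 22% and 13.2% with SETDB1 (all peaks 13.4%), 20.3% and 12.1% with TRIM28 (12.3%), and 19.6% and 11.1% with H3K9me3 (11.3%).

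Within shCtrl cells ARID1A sites gave no such excess against input. They met H3K9me3 in 7.08% of end-zone cases and 10.1% of interior cases, with a background of 10.1%, a difference of -3.04 points (-4.31 to -1.53). TRIM28 was met in 4.14% and 5.22% (background 5.21%, difference -1.08, -2.03 to 0.141), and SETDB1 in 12.2% and 11.3% (background 11.3%, difference 0.909, -0.754 to 2.79). In unmodified cells H3K9me3 was met in 3.6% and 2.30% (background 2.31%) and TRIM28 in 5.71% and 6.16% (background 6.16%), with intervals of the difference that included 0. Against IgG some excesses appeared. ARID1A of shCtrl cells met SETDB1 in 12.4% near the ends and 10.4% in the interior (all peaks 10.4%), a difference of 2.09 points (1.35 to 2.87). It met H3K9me3 in 12.5% and 12.3% (all peaks 12.3%) and TRIM28 in 8.48% and 10.7% (all peaks 10.6%), differences of 0.200 (-0.542 to 0.979) and -2.21 (-2.83 to -1.54). Unmodified ARID1A met H3K9me3 in 3.09% and 2.03% (all peaks 2.06%), a difference of 1.05 (0.241 to 2.13), and TRIM28 in 7.30% and 5.39% (all peaks 5.44%), a difference of 1.91 (0.614 to 3.45). Lists of 1 state called against the same kind of control may share that control library.

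In the reverse direction, shARID1A peaks near the ends were found in shCtrl cells in 3.70% of cases for H3K9me3 (interior 6.01%, all peaks 5.93%), 1.37% for TRIM28 (interior 1.97%, all peaks 1.95%) and 11.8% for SETDB1 (interior 9.67%, all peaks 9.74%). Against IgG the H3K9me3 shares were 11.1% and 11.0% (all peaks 11%), a difference of 0.0513 points (-0.598 to 0.733), so that deficit was not detectable there.

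Within shARID1A cells heterochromatin factors met each other more often near the ends when all peaks were counted. SETDB1 peaks met H3K9me3 in 16.8% of end-zone and 11.0% of interior cases, a difference of 5.77 points (3.74 to 8.01) beside 11.2% of all peaks. TRIM28 peaks met SETDB1 in 6.76% and 3.34%, a difference of 3.42 (2.79 to 4.11) beside 3.43% of all peaks. Among strong peaks the order turned for the pairs with H3K9me3: SETDB1 met H3K9me3 in 31.0% near the ends and 42.2% in the interior (all strong peaks 41.5%), a difference of -11.3 (-20.5 to -0.391), and TRIM28 met H3K9me3 in 10.7% and 18.4% (all strong peaks 18%), a difference of -7.67 (-12.5 to -0.397). Strong TRIM28 peaks met SETDB1 in 8.04% and 8.74%, and that difference of -0.704 (-4.68 to 5.93) was not detectable. In shCtrl cells the libraries labelled SETDB1 and H3K9me3 met in 14.5% and 22.6%, a difference of -8.09 (-9.77 to -6.24) beside 22.4% of all peaks. Against IgG they met in 26.2% and 27.5% (all peaks 27.5%), and the difference of -1.37 (-2.92 to 0.231) was not detectable. TRIM28 met the library labelled SETDB1 in 9.52% and 7.55% (all peaks 7.57%) and the one labelled H3K9me3 in 6.02% and 7.73% (all peaks 7.71%) in shCtrl cells, and H3K9me3 in 6.97% and 5.34% (all peaks 5.39%) in shARID1A cells.

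Libraries with unlike labels shared sites in the end zones too. The library labelled shCtrl SETDB1 met shARID1A H3K9me3 in 498 of 1569 end-zone peaks (31.7%) and 19.9% of interior peaks, with a background of 20.1%. That is well above the 8.92% it met in the SETDB1 library of shARID1A cells. In the other direction 27.8% of shARID1A H3K9me3 peaks near the ends met it, beside 28.1% in the interior and over all peaks. Peaks labelled shCtrl H3K9me3 met unmodified ARID1A in 6.51% of end-zone and 9.31% of interior peaks (background 9.28%), and near the ends that was as rare as meeting shARID1A H3K9me3. Of unmodified ARID1A peaks 20.7% near the ends and 27.3% in the interior met that library (all peaks 27.2%).

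Against input the excess of shARID1A SETDB1 and TRIM28 peaks near the ends lay in windows with a promoter. End zones hold 20.4 protein-coding genes per Mb and the interior 7.02, and windows with a promoter make up 11.7% of the end zones by length and 5.03% of the interior. In these windows the density ratio was 1.55 for shARID1A SETDB1 and 1.5 for TRIM28. In all other windows it was 0.971 and 0.986. For shARID1A H3K9me3 both were alike, 1.20 and 1.17, and for shCtrl ARID1A they were 0.566 and 0.408. Against IgG the promoter windows gave 0.984 for shARID1A SETDB1 and 1.05 for TRIM28, and the other windows 0.909 and 0.968, so the gap between the window classes was small there.

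Promoters were taken from RefSeq as 250 bases before to 50 after the start of 15101 protein-coding genes, 962 of them in end zones. Near the ends they were richer in CpG, with a median of 25 CpG in the 250 bases before the start against 17 in the interior, and a GC content of 69.6% against 62%. In shARID1A SETDB1 10.9% of all promoters had a peak, 180 of 962 (18.7%) near the ends and 10.4% in the interior, a difference of 8.30 points (5.91 to 10.9). In shARID1A TRIM28 14.2% had one, 252 of 962 (26.2%) near the ends and 13.4% in the interior.

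The difference was also present among promoters rich in CpG. Among promoters with over 23 CpG the shares were 28.6% near the ends and 19.5% in the interior for SETDB1, and 38.8% and 25% for TRIM28. In the classes of fewer CpG the SETDB1 shares did not differ beyond counting error, with 14.3% and 11.7% in the middle class and 2.01% and 1.45% in the low class. TRIM28 had 19.7% and 13.0% in the middle class. Against IgG, however, 43.3% of end-zone and 42.3% of interior promoters had a SETDB1 peak (all promoters 42.4%), and 36.6% and 35.9% a TRIM28 peak (all promoters 35.9%), so no difference was detectable over all promoters. In the middle class the order was then the reverse, with 43.8% and 55.8% for SETDB1, a difference of -12.0 points (-18.8 to -4.96), and 36.9% and 47.2% for TRIM28, a difference of -10.3 (-16.8 to -3.30). In the library labelled shCtrl SETDB1 promoters ran the other way with both controls. Of all promoters 17.4% had one of its peaks against input, 5.09% near the ends and 18.3% in the interior, and against IgG the shares were 9.56% and 26.7% (all promoters 25.6%). The interval of the difference lay below 0 in each of 3 classes of CpG content. Promoters near the ends were also hit less in shARID1A H3K9me3, so this was not limited to shCtrl cells. Its shares against input were 4.78% and 8.46% in the interior, a difference of -3.68 points (-4.95 to -2.08). Against IgG they were 21.1% and 36.6%, a difference of -15.5 (-18.1 to -12.7). Promoters of the end zones had 0 of 962 peaks in shCtrl H3K9me3 against input, beside 1.76% in the interior and 1.65% of all promoters.

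**Figure D5:**
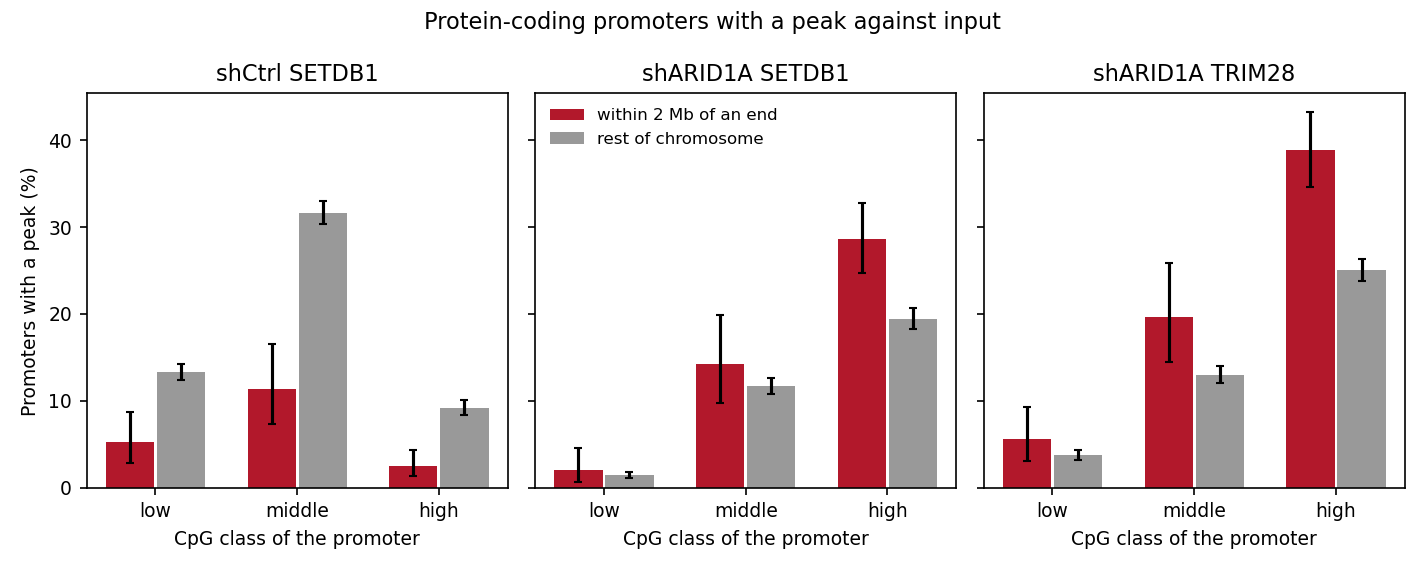
Share of protein-coding promoters with a peak against input (%), for promoters within 2 Mb of an end (red) and elsewhere (grey), in classes of low (up to 11), middle (12 to 23) and high CpG number per 250 bases. Bars start at 0 and carry exact 95% counting intervals; red bars are the lower in shCtrl SETDB1 and the higher in shARID1A SETDB1 and TRIM28.

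Strong SETDB1 peaks of shARID1A cells lay on 21 end-zone promoters, 2.13% of all promoters having one. The word ACTACAA, read on both strands, stood in 10 of these 21 promoter windows, and in 3.21% of all 15101 protein-coding promoters. In 19 peaks, as some starts share a peak, 8 had it, and without C1orf159 and PTDSS2, where it was first seen, 8 of 19 promoters had it. The word was not limited to chromosome ends: interior promoters with a strong SETDB1 peak had it in 90 of 300 cases, and all end-zone promoters in 25 of 962. Of promoters with high CpG content 2.52% had it.

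All 21 promoter peaks were strong against IgG as well. In the larger IgG list, where 10% of all promoters had a strong SETDB1 peak, 16 of the 111 end-zone promoters with one had ACTACAA. Among end-zone promoters with strong peaks of the library labelled shCtrl SETDB1 (13.1% of all promoters had one) the word stood in 2 of 38. Among those with strong peaks of shARID1A TRIM28 (0.848% of all promoters) it stood in 3 of 17, and in the interior in 2 of 111. GGGCGG, the core of the GC box, stood in 19 of the 21 and in 89.7% of all high-CpG promoters, and TTAGGG, the telomere repeat unit, in 2 of the 21 and 8.73% of all promoters. These matches describe letters in a window and show no bound factor. Of the 21 promoters 8 also had a shCtrl ARID1A peak and 9 a shARID1A TRIM28 peak against input. Among all 962 end-zone promoters the shares were 11.1% for shCtrl ARID1A and 26.2% for shARID1A TRIM28. Among the 510 with high CpG content, a class that held 19 of the 21, they were 17.3% and 38.8%. The TRIM28 count was thus near its class share and the ARID1A count above it. Neither difference was tested.

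Of the 5 leading genes of shARID1A SETDB1 in the end zones, C1orf159, PTDSS2 and the overlapping pair UCKL1-AS1 and UCKL1 had the peak at a promoter printed above. C1orf159, on chromosome 1 at 1.12 Mb from the end, had a fold of 24.3 against input and 24.6 against IgG at 1115919 to 1116612. At the same place TRIM28 of shARID1A cells had a strong peak with a fold of 5.18 and shCtrl ARID1A one with 2.80 that was not strong. UCKL1-AS1, a long noncoding RNA gene that overlaps the start of UCKL1 on chromosome 20, had folds of 23.7 against input and 33.3 against IgG at 63956349 to 63956929, and shCtrl ARID1A had 2.72 there.

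LOC101929650, a noncoding RNA gene 0.0410 Mb from the end of 17q, had a SETDB1 fold of 22.5 at 83205410 to 83206097, with weaker peaks of shARID1A TRIM28 (3.77) and shCtrl ARID1A (3.06). PTDSS2 on chromosome 11 had 16.2 at 449959 to 450486, on its promoter, with shARID1A H3K9me3 at 2.26, and TCEA2, a transcription elongation factor gene on 20q, had 15.3 inside the gene at 64062857 to 64063329, with shCtrl ARID1A at 2.55. At none of these 5 sites did the library labelled shCtrl SETDB1 list a peak against either control.

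The libraries labelled shCtrl SETDB1 and shARID1A H3K9me3 shared their tallest sites near the ends. TXNL4A, a spliceosome gene 0.240 Mb from the end of 18q, had a fold of 39.2 at 80022604 to 80023581 in shCtrl SETDB1 and 20.9 in shARID1A H3K9me3, with 5.19 in shARID1A SETDB1. SPATA33 on 16q had 21.2 and 9.71 in the first 2 libraries, LARP4B on 10p (an RNA-binding protein gene) 17 and 8.96, and PRKAR1B on 7p (a regulatory subunit of protein kinase A) 16.7 and 6.95. These sites lay inside genes and off their promoters.

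ZNF670, a zinc finger gene 1.87 Mb from the end of 1q, had the reverse order of folds on its promoter. They were 13.0 in shARID1A H3K9me3 and 9.01 in shCtrl SETDB1, beside 4.14 in shARID1A SETDB1 and 3.02 in shARID1A TRIM28. Folds of different lists do not rank occupancy. The other leading H3K9me3 sites of shARID1A cells were in ZNF34 (13.7), ARHGAP39 (12.6) and TDRP (11.6), all on chromosome 8 and all with a shCtrl SETDB1 peak.

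The library labelled shCtrl H3K9me3 had its tallest end-zone peak in LOC105372497, a noncoding RNA gene on 20p, with a fold of 11.1. There shCtrl SETDB1 had 16.1, shARID1A H3K9me3 3.86, shCtrl ARID1A 3.05 and unmodified ARID1A 2.10. ERC1 (9.05), FOXF2-DT (8.41), SLC9D1 (7.53) and DCP1B (7.28) followed. Unmodified ARID1A was highest in NXN on 17p, a nucleoredoxin gene, with 6.87, where shCtrl H3K9me3 had 5.93 and shCtrl SETDB1 4.22. It was followed by ERICH1 (6.02), BTNL9 (5.36), ESYT2 (5.14) and LOC105375805 (4.85). At 4 of these 5 sites, all but BTNL9, the library labelled shCtrl H3K9me3 also had a strong peak. The NXN site held no shCtrl ARID1A peak against input.

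Among shCtrl ARID1A peaks the highest folds were in PSMF1 (5.27), OR4F16 (4.74), ZNF496 (4.53), DLG1 (4.47) and TUBGCP2 (4.32), and none was strong. For TRIM28 of shCtrl cells they were in PHRF1 (4.98, strong), LOC105374338 (4.94), DLG1 (4.37), LINC02193 (4.27) and PTPRN2 (4.22, strong). In shARID1A cells TRIM28 led in DCP1B (6.12), CHMP2A (5.64), SQSTM1 (5.23), C1orf159 (5.18) and QTGAL (5.18), all strong. CHMP2A, a subunit of the ESCRT-III membrane complex, lies 0.0507 Mb from the end of 19q and carried its peak on the promoter, with 8.47 against IgG. SQSTM1 encodes the autophagy receptor p62.

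Genes of the end zones were hit less often than interior genes in every library against input, and they are shorter, with a median of 13286 bp against 25946 bp. Of the 1419 protein-coding genes there, 982 had a shARID1A TRIM28 peak (69.2%, interior 74.0%, all genes 73.7%) and 555 a shARID1A SETDB1 peak (39.1%, interior 45.6%, all genes 45.1%). At the other extreme 311 had a shCtrl H3K9me3 peak (21.9%, interior 50.3%, all genes 48.2%). For strong peaks 74 had one of shARID1A SETDB1 (5.21%, interior 3.98%) and 75 one of shARID1A TRIM28 (5.29%, interior 3.94%), beside 4.07% and 4.04% of all genes. Against input strong peaks of these libraries thus marked a somewhat larger share of the genes near the ends. Against IgG this did not hold: the shares were 18.6% and 20.7% for SETDB1 (all genes 20.6%), a difference of -2.14 points (-4.17 to 0.0512), and 11.8% and 10.8% for TRIM28 (all genes 10.8%), a difference of 1.07 (-0.576 to 2.91).

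Zinc finger genes, the classic targets of TRIM28 and SETDB1, numbered 88 in the end zones. TRIM28 of shARID1A cells had a peak at 79 of them, led by ZNF7 (5.01), ZNF268 (4.55) and ZNF669 (4.24), beside 397 of 465 in the interior and 73.7% of all protein-coding genes. The library labelled shCtrl SETDB1 had 49, shARID1A H3K9me3 43, shARID1A SETDB1 38, shCtrl ARID1A 28, shCtrl TRIM28 23, unmodified H3K9me3 and TRIM28 22 each, shCtrl H3K9me3 16 and unmodified ARID1A 8. Of all protein-coding genes 45.1% to 59.9% had a peak in the 3 libraries after TRIM28, 54.1% in shCtrl ARID1A, 41.8% in shCtrl TRIM28, 14.2% in unmodified H3K9me3, 29.6% in unmodified TRIM28 and 26.9% in unmodified ARID1A. Zinc finger genes near the ends were thus above that share in shARID1A TRIM28 and unmodified H3K9me3, within 5 percentage points of it in shCtrl SETDB1, shARID1A H3K9me3, shARID1A SETDB1 and unmodified TRIM28, and lower in the other 4 libraries. Only shCtrl H3K9me3 (33.1%) and shCtrl TRIM28 (41.3%) had interior shares that lay above the end-zone share by an interval clear of 0.

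Duplicated families of chromosome ends, such as DUX4 copies, OR4F receptors, WASH and tubulin-8 genes, had 86 members in the end zones. Of these 54 had a shARID1A TRIM28 peak, beside 27 of 75 members elsewhere, a difference of 26.8 points (11.3 to 40.5). Their share of 62.8% was below the 73.7% of all protein-coding genes. The highest folds were in DUX4L9 (11.7), DUX4L13 (7.53) and DUX4L4 (5.65), copies of a germline and early embryo transcription factor gene. Other libraries had between 5 and 24 against input, in each below the share of all protein-coding genes given above. Against IgG the excess over members elsewhere went beyond counting error in several libraries. Shares were 65.1% and 30.7% in shARID1A TRIM28, 60.5% and 26.7% in shARID1A SETDB1, and 36.0% and 18.7% in shCtrl H3K9me3. Unmodified TRIM28 had 41.9% and 14.7%, and unmodified H3K9me3 34.9% and 12%. The latter exceeded the 20.0% of end-zone and 28.0% of interior protein-coding genes. In the remaining libraries the difference lay within counting error. Counts at such near-identical copies are uncertain, since how multi-copy reads were placed is not given in the sources used here.

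Olfactory receptor genes of the end zones (57) had a shARID1A TRIM28 peak in 22 cases, led by OR2B11 (4.24), OR2L13 (3.29) and OR2L3 (3.29), a shCtrl TRIM28 peak in 12 and at most 7 in the other libraries. These shares, 38.6% for shARID1A TRIM28 and 21.1% for shCtrl TRIM28, were below the 73.7% and 41.8% of all protein-coding genes. Of the protein-coding genes in the end zones 69.2% and 18.7% had one, so the shCtrl TRIM28 share was not below those. For unmodified H3K9me3 7 of 57 stood beside 12 of 334 elsewhere, a difference of 8.69 points (1.97 to 19.8). Of 4 mucin genes on 11p, MUC2 (3.6) and MUC5AC (2.70) had a shARID1A H3K9me3 peak against input, neither strong, beside 48.1% of all protein-coding genes. Against IgG 1 of the 4 had a strong one, beside 36.6% of end-zone protein-coding genes. Of 6 interferon-induced genes, IFITM1 (2.64), ISG15 (2.01) and IRF7 (1.88) had a shARID1A TRIM28 peak against input, none strong, a share below the 73.7% of all genes. Against IgG all 6 had a shCtrl ARID1A peak, beside 74.7% of end-zone protein-coding genes. Strong peaks against IgG lay at 2 of the 6 in shCtrl SETDB1 and in shARID1A H3K9me3, beside 37.5% and 36.6% of end-zone protein-coding genes. The alpha globin cluster, 5 genes near the end of 16p, had no peak in any input list.

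Against input, of 8 genes of the study or of telomere upkeep in the end zones, TERT, the telomerase catalytic subunit, had 1 weak peak of shARID1A TRIM28 over its start (2.35). Against IgG TERT had 2 peaks of shARID1A H3K9me3 (up to 3.64, 1 strong) and 4 labelled shCtrl H3K9me3, none strong. With that control 6 of the 8 genes had a strong shARID1A H3K9me3 peak, beside 36.6% of end-zone protein-coding genes, and against input 2 did. The folds of the other 7 genes below are against input. RTEL1, a helicase that keeps telomeres intact, had a strong shARID1A SETDB1 peak (6.30) and a strong shCtrl SETDB1 peak (6.02) at another place in the gene. TRIM28 itself lies 0.0553 Mb from the end of 19q, with a strong shCtrl SETDB1 peak of fold 3.48 at its start, a shCtrl ARID1A peak of 3.03 and a shARID1A TRIM28 peak of 1.82.

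ZGPAT, a zinc finger repressor gene next to RTEL1, had shCtrl SETDB1 peaks up to 8.57. TUBB3, a neuronal tubulin gene, had shARID1A H3K9me3 peaks up to 4.26, and FANCA, a DNA repair gene, had shCtrl SETDB1 at 3.09. AXIN1, a brake on WNT signalling, had shCtrl ARID1A at 3.25 and shARID1A TRIM28 at 3.29, and POLR3K had no peak against input.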

How the data were processed

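The deposited data are narrowPeak lists of ChIP-seq libraries from HCT116 cells, fixed with 1% formaldehyde per the labels' protocols. The submitters' processing notes name Bowtie2 2.2.5, MACS2 2.2.7.1, FastQC 0.11.9, deepTools 3.5.1 and ChIPseeker, with GRCh38 (hg38); whether duplicates or multi-copy reads were removed is not given in the sources used here. Per the file format, the authors deposited for each peak a fold enrichment (a ratio over the local background) and −log10 p and −log10 q values. Which control was used was read from the names of the lists, and read depth per library is unknown.

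Peaks on chromosomes 1 to 22 were assigned to an end zone where any base lay within 2 Mb of the last covered base or of position 1. Length was counted as 10 kb windows touched by any of 20 lists. Intervals are exact Clopper-Pearson for shares and ratios and Newcombe for differences, at 95%, and cover counting error only. No test was made, since each group holds 1 library. Genes and promoter sequences are RefSeq's on GRCh38.p14. Named genes are, per list, the 5 highest end-zone peaks that the IgG list shares, 1 per protein-coding or lncRNA gene, with the 3 highest members of each gene list. Alternatives were the IgG list, a q limit of 0.05, the top 10000 peaks, a 1 Mb zone, plain length and an overlap of 50%. The members and lists were chosen with earlier results of these data known. Python 3.11.15, numpy 2.4.6, pandas 2.3.3, scipy 1.17.1 and matplotlib 3.10.9 were used, and the counting was tested on simulated peaks.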

Additional observations from a re-analysis of the deposited data

How the results depend on the processing

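Of 105 values recomputed under other settings, 41 stayed within counting error, 54 moved and 10 turned direction. A turn was counted only where the interval of the main value left out equality. Other changes of sign are among the values that moved or stayed within counting error. The cause of the changes was not tested. No paired analysis was possible because each group holds 1 library.

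Against IgG the density ratio was 0.942 for ARID1A, 1.35 for H3K9me3 and 1.10 for TRIM28 of unmodified cells. It was 0.890 for ARID1A, 0.905 for H3K9me3, 0.789 for TRIM28 and 1.02 for SETDB1 of shCtrl cells, and 0.985 for shARID1A SETDB1. The share difference between states was then 0.878 points for H3K9me3, 0.648 (TRIM28) and -0.0981 (SETDB1). The excess of peaks found again was 5.29 for H3K9me3 and 1.13 for TRIM28, and the ARID1A overlap in shCtrl cells differed by 0.200 with H3K9me3 and -2.21 with TRIM28.

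With peaks at a q of at most 0.05 the density ratio was 0.619 in unmodified ARID1A, 9.06 in unmodified H3K9me3 and 1.11 in unmodified TRIM28. It was 0 in shCtrl ARID1A, 0.461 in shCtrl H3K9me3, 17.1 in shCtrl TRIM28 and 0.856 in shCtrl SETDB1, and 1.32 in H3K9me3, 2.04 in TRIM28 and 2.39 in SETDB1 of shARID1A cells. The ratios of unmodified H3K9me3, unmodified TRIM28, shCtrl ARID1A and shCtrl TRIM28 rest on only 15, 67, 42 and 25 peaks. The share difference was 2.27 for H3K9me3, -26.7 for TRIM28 and 3.89 for SETDB1; the TRIM28 value rests on 25 shCtrl peaks. SETDB1 peaks found again differed by 1.97, and unmodified ARID1A overlaps by -0.366 with H3K9me3 and 6.78 with TRIM28. For shCtrl ARID1A overlaps this limit left no end-zone peak and gave no value.

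With the 10000 peaks of highest q the ratio was 0.351 in unmodified ARID1A, 0.615 in unmodified TRIM28, 0.515 in shCtrl ARID1A, 0.485 in shCtrl H3K9me3, 0.533 in shCtrl TRIM28 and 0.883 in shCtrl SETDB1. In shARID1A cells it was 1.33 for H3K9me3, 1.47 for TRIM28 and 1.54 for SETDB1. The share difference was 2.44 for TRIM28 and 1.69 for SETDB1. Peaks found again differed by 1.33 for H3K9me3, 7.59 for TRIM28 and 6.13 for SETDB1. ARID1A overlaps in shCtrl cells differed by -0.294 with H3K9me3, 3.69 with TRIM28 and -4.75 with SETDB1, and in unmodified cells by 5.13 with TRIM28.

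With a zone of 1 Mb the ratio was 0.963 in unmodified H3K9me3, 0.667 for TRIM28 of those cells, 0.518 in shCtrl ARID1A, 0.465 in shCtrl H3K9me3, 0.570 in shCtrl TRIM28, 0.818 in shCtrl SETDB1 and 1.11 in shARID1A TRIM28. The share difference was 0.960 for H3K9me3, 0.712 (TRIM28) and 0.434 (SETDB1), and H3K9me3 peaks found again differed by 1.27. Plain length gave 1.03 for shARID1A TRIM28. With an overlap of at least 50% SETDB1 peaks found again differed by 2.60, and shCtrl ARID1A overlaps with H3K9me3 by -1.28. That overlap was -0.706 with the second list against IgG. Without the libraries of doubted label, an alternative chosen after seeing the data, 5 of 8 input lists had a ratio below 1.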

Other observations

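Most end-zone sites were listed in a single library. Input peaks merged over the 10 libraries gave 9608 regions held by 1 library (82.9%), 1337 held by 2 and 453 held by 3. No such share is given for the interior, so these counts do not set the end zones apart. Only 1 region was held by 9 libraries, on chromosome 8, and 1 by 8 libraries, in the zinc finger gene ZNF721 at 441190 to 444313 on chromosome 4. Of the 4 regions held by 7 libraries, 2 lay in PTPRN2, a receptor-type phosphatase gene near the end of 7q. Another lay on chromosome 17 at 83237262 to 83238913, 0.00816 Mb from the end.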
